A study of Mus musculus with 10 samples.

Results

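The semaphorins, ephrins, Slits and netrins and their plexin, neuropilin, Eph, Robo and Unc5 receptors were followed in 5 groups of 4T1-T cells. The genes were taken by symbol: every entry named Sema3 to Sema7 with a letter, Plxna to Plxnd, Nrp1 or Nrp2, Efna, Efnb, Epha, Ephb, Slit, Robo, Ntn or Unc5 with its number or letter was a member, which gave 68 of the 23479 gene entries. 4T1-T is a single-cell clone of 4T1, a mouse mammary carcinoma line that forms metastases, and the series is about tumour heterogeneity and vascular mimicry, in which tumour cells themselves line channels that carry blood. The groups were shSlpi-1 and shSlpi-2, with hairpins against Slpi (a protein that cells release and that blocks neutrophil elastase), shSerpine2-1 and shSerpine2-2, with hairpins against Serpine2 (a secreted inhibitor of thrombin and urokinase), and shRenilla, a control hairpin against a luciferase that mouse cells lack. All 5 groups are infected cultures of that single clone, in the same medium with serum, and each is represented by 2 libraries of RNA sequencing, A and B. Whether A and B stem from separate cultures is not stated, so the spread behind each p-value is the one found among these libraries and may be technical only.

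Guidance genes were found through the paths that growing axons take, and the same ligands steer endothelial cells when vessels sprout. Semaphorins bind plexins, at times together with a neuropilin, and change cell shape through small GTPases. Ephrins and Eph receptors sit on the membranes of neighbouring cells and signal in both directions on contact, Slits bind Robo receptors, and netrins bind Unc5 and Dcc family receptors. Epha2, a receptor tyrosine kinase of epithelium, is known from work on melanoma as a gene that vascular mimicry needs, and Nrp2, Unc5b, Plxnd1, Ephb4 and Efnb2 are known from the development of vessels.

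Depth ran from 15877431 to 24026620 reads per library. The targeted genes were low in the lines aimed at them. Slpi had 145 and 147 normalized counts with shSlpi-1 and 60.9 and 75.8 with shSlpi-2, against 1189 and 1313 with shRenilla. Serpine2 had 128 and 139 with shSerpine2-1 and 489 and 514 with shSerpine2-2, against 3256 and 3145 with shRenilla. Each inhibitor was also lower in some lines aimed at the other: Serpine2 lay between 1331 and 1731 in the 4 shSlpi libraries, and Slpi had 326 and 414 with shSerpine2-1. With shSerpine2-2, Slpi had 1111 and 1218, so the lines called Serpine2 lowered differ in Slpi. Epithelial identity was plain in all groups, with 6 of 6 keratin and junction markers above 10 normalized counts and a sum of 21599 or more in each library. The shSlpi-2 libraries stood apart: they held 6.88% and 6.91% ribosomal precursor RNA (Rn45s) against 1.00% and 1.21% with shRenilla, and they differed from each other by more than any other pair (chi-square per degree of freedom 9.66, against 1.51 to 2.64).

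All 68 members had at least 1 read in some library, but many were hardly transcribed. With a mean of at least 10 normalized counts, 43 members entered the tests, of which 23 are ligands and 20 are receptors. They comprise 14 of 20 semaphorins, 7 of 9 plexins, both neuropilins, 6 of 8 ephrins, 9 of 14 Eph receptors, 1 of 3 Slits (Slit2), 1 of 4 Robo receptors (Robo1), 2 of 4 netrins (Ntn1 and Ntn4) and 1 of 4 Unc5 receptors (Unc5b). Just inside that limit were Epha10 (mean 12.1), Ntn4 (16.4) and Sema4f (21.8), and just outside it Sema3c (8.24), Efna3 (7.86) and Sema6c (5.43). Per length, 28 members reached 1 RPKM, the reads of a gene divided by its exon length in kilobases and by the depth of its library.

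Nrp2, a coreceptor for class 3 semaphorins and for Vegfc, was the most abundant member per length, with a mean of 95.4 RPKM over the 10 libraries and a range of 82.2 to 115. Efnb2, the ligand of Ephb4, followed with 51.3 RPKM (range 46.0 to 55.7), and the ranges of these 2 genes did not overlap. Epha2 came next with 38.4 RPKM (34.0 to 43.4), then Efna5, an ephrin held on the membrane by a lipid anchor, with 28.5 RPKM (24.9 to 32.2), again without overlap between neighbours in this order. Plxnb2, Unc5b and Ephb4 had 23.0, 20.5 and 18.8 RPKM, and their ranges overlapped, as did those of Plxnb2 and Efna5. The most abundant semaphorin was Sema4b with 16.4 RPKM, while its class 3 relative Sema3e, a secreted ligand of Plxnd1, had 10.3 RPKM. Plxnd1 itself had 0.736 RPKM and Robo1 0.439 RPKM. Ntn1, a secreted ligand of Unc5b, had 1.60 RPKM beside the 20.5 RPKM of that receptor.

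**Figure D1:**
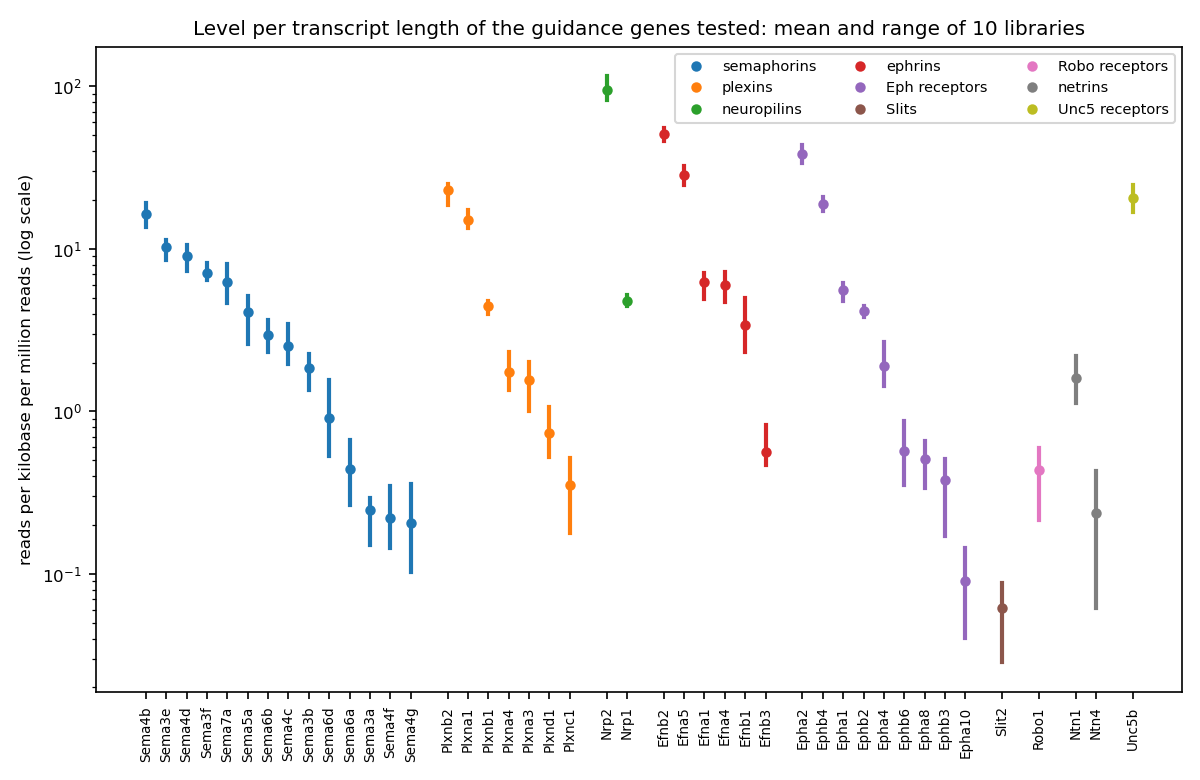
Level per length of the 43 guidance genes tested, in RPKM (reads scaled by exon length and depth) on a log axis. Points are means of 10 libraries, bars run from the lowest to the highest library, and colours mark families. Nrp2 is highest at 95.4, while the tested members of the Slit and Robo families lie below 1.

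With Slpi lowered, 7 of the 43 tested guidance genes were called as risen and 12 as fallen, which leaves 24 uncalled. The falls were the larger changes: their median was 0.62 on the log2 scale, against 0.38 for the rises. Among the 23 ligands 2 rose and 7 fell, led by Sema6d, and among the 20 receptors 5 rose and 5 fell, with Unc5b, Plxnb2, Nrp2, Epha2 and Ephb3 up and Plxna4, Plxna3, Plxnd1, Robo1 and Ephb6 down. In all, 44.2% of the tested members were called, against 34.8% of all 12299 genes tested, and the difference between these shares was not tested. Counted by direction, all genes gave 16.5% up and 18.3% down. Libraries did not overlap between the Slpi hairpins and shRenilla for 19 members, which is again 44.2%, against 40.1% of all genes. The median size of change was 0.24 among members and 0.17 among all genes on the log2 scale. These are bulk cultures, in which fewer cells with a transcript and less transcript per cell cannot be told apart.

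With Serpine2 lowered, 6 of the 43 were called as risen and 7 as fallen, which leaves 30 uncalled. Nrp2, Unc5b, Plxnb2, Sema4d, Plxna1 and Epha2 were up, and Sema6d, Sema4c, Plxna4, Sema7a, Efna5, Plxna3 and Plxnd1 were down. That is 30.2% of members, against 21.5% of all genes tested (10.7% up and 10.8% down), and this difference was not tested either. For 15 of the 43 members the libraries of the Serpine2 hairpins lay all above or all below those of shRenilla. The same is the case for 4633 of all 12299 genes, or 37.7%, so the share of members was the lower one. Both comparisons use the same shRenilla libraries, so values are given side by side below, and a likeness between them can come from those 2 libraries.

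The shRenilla libraries decided several calls. Without shRenilla library B, 12 members were called with Slpi lowered and 4 with Serpine2 lowered, while 19.5% and 6.23% of all genes were. Without library A it was 14 and 11 members, and 22.2% and 11.3% of all genes. The counts of all genes thus dropped with those of the members. Of the 19 calls with Slpi lowered, 11 held whichever single library was left out (Sema6d, Plxna4, Unc5b, Sema4d, Plxna3, Sema4c, Nrp2, Sema5a, Sema7a, Plxnb2 and Plxnd1), and of the 13 with Serpine2 lowered 4 did (Nrp2, Unc5b, Plxnb2 and Sema4c). These fits keep both hairpins of a target, so they do not show whether a call rests on 1 of them. Of the genes just listed, Sema5a and Plxnb2 were not called with shSlpi-1 alone. Unc5b was not called with shSerpine2-1 alone, nor Sema4c with shSerpine2-2 alone. How many calls of all genes held was not counted. Each hairpin line was also taken as a single unit, where hairpins of 1 target supply the spread. There limma called 0 members and 0% of all genes in either comparison, and 5 and 2 members had an unadjusted p under 0.05.

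**Figure D2:**
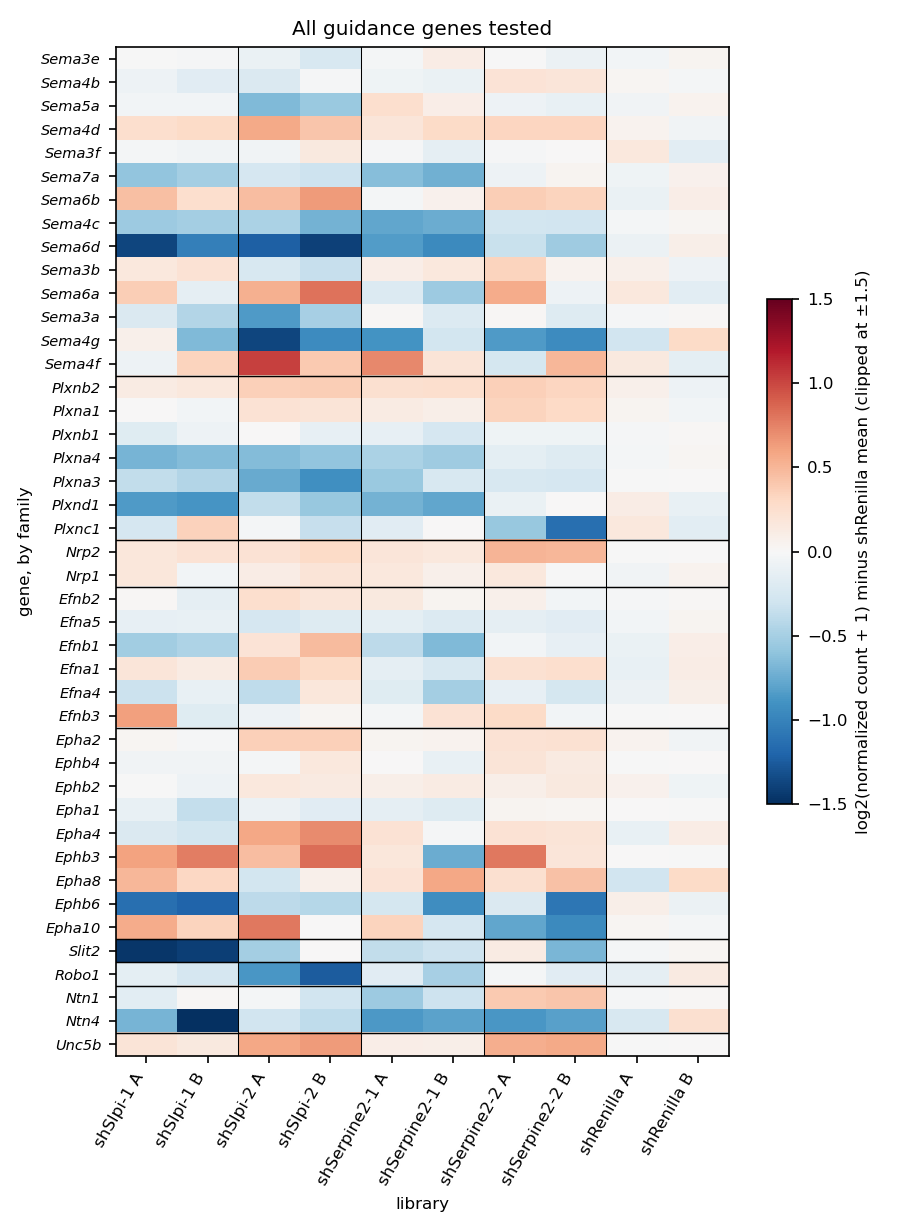
Log2(normalized count + 1) of the 43 tested guidance genes in each library, minus the mean of both shRenilla libraries, with colour limits at -1.5 and 1.5. Rows are grouped by family and ordered by level, and columns are libraries A and B of shSlpi-1, shSlpi-2, shSerpine2-1, shSerpine2-2 and shRenilla. Sema6d is low in all 8 knockdown libraries, while rows such as Epha4 and Efnb1 differ between hairpins of 1 target.

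Among the semaphorins, Sema6d, a transmembrane ligand of class A plexins, changed most. It lies on chromosome 2, 124089969 to 124667770, plus strand (GRCm38, GENCODE M21, used for all positions given). It had 109.9 and 140.5 normalized counts with shSlpi-1, 122 and 108 with shSlpi-2, 159 and 147 with shSerpine2-1 and 227 and 197 with shSerpine2-2, against 269.7 and 303 with shRenilla. Every knockdown library lay below both shRenilla libraries, and those of the Slpi hairpins were the lowest. Sema6d fell by 1.25 on the log2 scale with Slpi lowered (SE 0.12, limma adjusted p = 1.18e-06) and by 0.67 with Serpine2 lowered (SE 0.12, limma adjusted p = 0.00125). The second call was lost without shRenilla library B (-0.58, limma adjusted p = 0.0522). Sema4c, a transmembrane ligand of Plxnb2, had 195 and 199 normalized counts with shSlpi-1, 205 and 174 with shSlpi-2, 166 and 169.5 with shSerpine2-1 and 235 and 233 with shSerpine2-2, against 278 and 291 with shRenilla. Again all 8 knockdown libraries were lower than shRenilla, and the lowest were those of shSerpine2-1. Sema4c fell by 0.56 with Slpi lowered (SE 0.10, limma adjusted p = 0.000286) and by 0.52 with Serpine2 lowered (SE 0.10, limma adjusted p = 0.00132). With shSerpine2-2 alone it was not called.

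Sema7a, a semaphorin with a lipid anchor that binds Plxnc1 and integrins, had 307 and 327 normalized counts with shSlpi-1, 390.5 and 376 with shSlpi-2, 299.6 and 281 with shSerpine2-1 and 442 and 477 with shSerpine2-2, against 444 and 488 with shRenilla. The shSerpine2-2 libraries overlapped those of shRenilla, while the other 6 knockdown libraries were lower. Sema7a fell by 0.42 with Slpi lowered (SE 0.08, limma adjusted p = 0.000589) and by 0.35 over both Serpine2 hairpins (SE 0.08, limma adjusted p = 0.00453), made up of -0.68 with shSerpine2-1 and -0.02 with shSerpine2-2. The call over both Serpine2 hairpins was lost without shRenilla library B (limma adjusted p = 0.117). Sema3a, a secreted repellent that signals through Nrp1, had 63.5 and 54.1 normalized counts with shSlpi-1, 40.6 and 52.1 with shSlpi-2, 74.6 and 63.9 with shSerpine2-1 and 74.6 and 64.3 with shSerpine2-2, against 72.7 and 74.9 with shRenilla. Only the shSlpi libraries were all below shRenilla. Sema3a fell by 0.50 with Slpi lowered (SE 0.17, limma adjusted p = 0.0301), a call that was lost without both shSlpi-2 libraries (-0.33, limma adjusted p = 0.212) and without either shRenilla library, library A of shSlpi-2 or library B of shSlpi-1 (limma adjusted p up to 0.157). Its value with Serpine2 lowered was -0.09 (95% interval -0.45 to 0.26).

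Semaphorins that rose were Sema4d and Sema6b. Sema4d, a transmembrane ligand of Plxnb1 that is known to promote vessel growth, had 1280.3 and 1312 normalized counts with shSlpi-1, 1590.0 and 1428 with shSlpi-2, 1215 and 1311 with shSerpine2-1 and 1339.9 and 1346 with shSerpine2-2, against 1113 and 1037 with shRenilla. All knockdown libraries were higher than both shRenilla libraries. Sema4d rose by 0.38 with Slpi lowered (SE 0.06, limma adjusted p = 9.36e-05) and by 0.28 with Serpine2 lowered (SE 0.06, limma adjusted p = 0.0028), the second without a call when shRenilla library B was left out (0.23, limma adjusted p = 0.091). Sema6b, a transmembrane ligand of Plxna4, had 245 and 212 normalized counts with shSlpi-1, 247 and 278 with shSlpi-2, 175 and 187 with shSerpine2-1 and 232 and 225 with shSerpine2-2, against 166 and 192 with shRenilla. The shSlpi libraries were higher than shRenilla, whereas shSerpine2-1 lay within its range. Sema6b rose by 0.45 with Slpi lowered (SE 0.10, limma adjusted p = 0.00278), and the value without shRenilla library A was 0.35 (limma adjusted p = 0.0687). With Serpine2 lowered it was 0.19 (95% interval -0.03 to 0.40).

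Class A plexins, the receptors of class 3 and class 6 semaphorins, went both ways. Plxna4 (chromosome 6, 32144268 to 32588192, minus strand) had 364 and 377 normalized counts with shSlpi-1, 375 and 391 with shSlpi-2, 423 and 406 with shSerpine2-1 and 534 and 518 with shSerpine2-2, against 578 and 603 with shRenilla. All knockdown libraries were below shRenilla, with shSerpine2-2 nearest to it. Plxna4 fell by 0.65 with Slpi lowered (SE 0.07, limma adjusted p = 2.59e-06) and by 0.34 with Serpine2 lowered (SE 0.07, limma adjusted p = 0.0023), the second not called without shRenilla library B (-0.31, limma adjusted p = 0.0611). Plxna3, a receptor of Sema3f together with Nrp2, had 224 and 213 normalized counts with shSlpi-1, 171 and 152 with shSlpi-2, 196 and 244 with shSerpine2-1 and 244 and 243 with shSerpine2-2, against 287 and 291 with shRenilla. It was lowest with shSlpi-2, and no knockdown library reached the shRenilla values. Plxna3 fell by 0.62 with Slpi lowered (SE 0.10, limma adjusted p = 0.000212). With Serpine2 lowered it fell by 0.32 (SE 0.10, limma adjusted p = 0.0334), a call lost without either shRenilla library (adjusted p = 0.137 without A and 0.203 without B, limma), without shSerpine2-1 library A (0.115) and without either shSerpine2-2 library (0.0767 and 0.0807). Plxna1, a receptor of Sema6d, had 2308 and 2229 normalized counts with shSlpi-1, 2675 and 2627 with shSlpi-2, 2509.5 and 2453 with shSerpine2-1 and 2889.6 and 2832 with shSerpine2-2, against 2374 and 2228 with shRenilla. Here shSlpi-1 overlapped shRenilla and the other lines were higher. Plxna1 rose by 0.21 with Serpine2 lowered (SE 0.04, limma adjusted p = 0.0031), not called without shRenilla library B (0.17, limma adjusted p = 0.0989), and its value with Slpi lowered was 0.09 (95% interval -0.00 to 0.19).

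Plxnb2, the most abundant plexin per length, had 3059 and 3128 normalized counts with shSlpi-1, 3603 and 3631 with shSlpi-2, 3329 and 3339 with shSerpine2-1 and 3609.6 and 3526 with shSerpine2-2, against 2977 and 2659.8 with shRenilla. The groups did not overlap, although the shRenilla libraries lay far apart. Plxnb2 rose by 0.25 with Slpi lowered (SE 0.05, limma adjusted p = 0.000633) and by 0.29 with Serpine2 lowered (SE 0.05, limma adjusted p = 0.000447). With shSlpi-1 alone it was not called. Plxnd1, which in endothelium receives Sema3e, had 71.6 and 69.7 normalized counts with shSlpi-1, 101 and 87.1 with shSlpi-2, 79.1 and 75.5 with shSerpine2-1 and 121 and 130.2 with shSerpine2-2, against 140.1 and 120.1 with shRenilla. It was lower with both Slpi hairpins and with shSerpine2-1, and shSerpine2-2 overlapped shRenilla. Plxnd1 fell by 0.67 with Slpi lowered (SE 0.13, limma adjusted p = 0.00101) and by 0.39 over both Serpine2 hairpins (SE 0.13, limma adjusted p = 0.0444). That Serpine2 call was lost when any library of shRenilla, shSerpine2-1, shSerpine2-2 or shSlpi-1 was left out (limma adjusted p = 0.0522 to 0.308). Its ligand Sema3e did not pass, with values of -0.09 (95% interval -0.21 to 0.03) with Slpi lowered and 0.00 (95% interval -0.12 to 0.12) with Serpine2 lowered. Exons of Plxna4, Plxna1 and Sema4c overlap transcripts of the opposite strand in the annotation (Plxna4os3, Gm26811 and D430040D24Rik). So do those of other members, among them Ephb4 (Zan), Epha1 (Zyx), Plxnb1 (Gm7628) and Efna4 (4731419I09Rik). Whether counting used strand is not given, so reads of these pairs cannot be told apart. Exons of Plxnc1 overlap Gm48718 on the same strand, and those of Nrp1 overlap the microRNA gene Mir1903 on the same strand.

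Of the neuropilins, Nrp2 (chromosome 1, 62703285 to 62818695, plus strand) had 20039.8 and 20640.2 normalized counts with shSlpi-1, 20761 and 21632 with shSlpi-2, 20199 and 19911 with shSerpine2-1 and 25304 and 25099.8 with shSerpine2-2, against 17663 and 17934 with shRenilla. Every knockdown library was higher than both shRenilla libraries, and shSerpine2-2 was the highest. Nrp2 rose by 0.22 with Slpi lowered (SE 0.04, limma adjusted p = 0.000301) and by 0.34 with Serpine2 lowered (SE 0.04, limma adjusted p = 3.58e-05), which is 1.17-fold and 1.26-fold. Nrp1, the coreceptor of Sema3a, ranged from 795 to 940.3 normalized counts over the 10 libraries and did not pass, with 0.11 (95% interval -0.04 to 0.26) and 0.10 (95% interval -0.05 to 0.24). The difference between Nrp1 and Nrp2 was not tested.

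The netrin receptor Unc5b, which also marks the tips of sprouting vessels, lies on chromosome 10, 60762593 to 60831581, minus strand. It had 2202 and 2135 normalized counts with shSlpi-1, 2884 and 2990.3 with shSlpi-2, 2067 and 2055 with shSerpine2-1 and 2821 and 2859 with shSerpine2-2, against 1918 and 1937 with shRenilla. The second hairpin of each target gave the higher values, and no knockdown library overlapped shRenilla. Unc5b rose by 0.39 with Slpi lowered (SE 0.04, limma adjusted p = 4.33e-06) and by 0.33 with Serpine2 lowered (SE 0.04, limma adjusted p = 9.73e-05). By single hairpins, the values were 0.17 with shSlpi-1, 0.61 with shSlpi-2, 0.10 with shSerpine2-1 (limma adjusted p = 0.241, not called) and 0.56 with shSerpine2-2. The shSlpi-1 call was lost when any shRenilla or shSlpi-1 library was left out (limma adjusted p = 0.0759 to 0.154). Robo1, a receptor for Slits, had 147 and 137 normalized counts with shSlpi-1, 88.9 and 68.2 with shSlpi-2, 145 and 115 with shSerpine2-1 and 161 and 145 with shSerpine2-2, against 149 and 179.6 with shRenilla. The fall was carried by shSlpi-2, since shSlpi-1 lay just under the lower shRenilla library. Robo1 fell by 0.63 with Slpi lowered (SE 0.14, limma adjusted p = 0.00254), and without both shSlpi-2 libraries the value was -0.20 (limma adjusted p = 0.32). It was also not called without shRenilla library B (-0.49, limma adjusted p = 0.0779). Its ligand Slit2 was weak, with 13.1 and 13.5 normalized counts with shSlpi-1, 26.1 and 37.9 with shSlpi-2, 29.0 and 30.2 with shSerpine2-1 and 41.3 and 23.0 with shSerpine2-2, against 36.9 and 38.6 with shRenilla. Slit2 fell by 0.84 over both Slpi hairpins (SE 0.26, limma adjusted p = 0.0189), and shSlpi-1 alone was far below the other groups. The call was lost without either shRenilla library (limma adjusted p = 0.0922 and 0.125).

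Among ephrins, Efna5 had 2134 and 2155 normalized counts with shSlpi-1, 1960.2 and 2027 with shSlpi-2, 2105 and 2019 with shSerpine2-1 and 2115 and 2074 with shSerpine2-2, against 2266 and 2385 with shRenilla. All knockdown libraries were below shRenilla, by a small margin. Efna5 fell by 0.17 with Slpi lowered (SE 0.05, limma adjusted p = 0.00839) and by 0.16 with Serpine2 lowered (SE 0.05, limma adjusted p = 0.0179). Neither call was made without shRenilla library B (limma adjusted p = 0.133 and 0.228), nor was that of Serpine2 without library B of either Serpine2 hairpin, nor was that of Slpi without both shSlpi-2 libraries (-0.12, limma adjusted p = 0.061). The more abundant Efnb2 lay between 5704 and 7454 normalized counts in the 10 libraries and did not pass, with 0.08 (95% interval -0.03 to 0.19) and 0.06 (95% interval -0.05 to 0.16). Its receptor Ephb4 did not pass either, with 0.01 (95% interval -0.11 to 0.13) and 0.06 (95% interval -0.06 to 0.17).

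Epha2 (chromosome 4, 141301240 to 141329384, plus strand) had 3095 and 2999 normalized counts with shSlpi-1, 3878 and 3893 with shSlpi-2, 3122 and 3157 with shSerpine2-1 and 3524 and 3552 with shSerpine2-2, against 3153 and 2922 with shRenilla. Both shSlpi-2 libraries and both shSerpine2-2 libraries were higher than shRenilla, while shSlpi-1 and shSerpine2-1 lay inside or within a few counts of the shRenilla range. Epha2 rose by 0.18 over both Slpi hairpins (SE 0.04, limma adjusted p = 0.00403), but this came from shSlpi-2 (0.36, 95% interval 0.25 to 0.46), and with shSlpi-1 the value was 0.01 (95% interval -0.10 to 0.11). Over both Serpine2 hairpins it rose by 0.13 (SE 0.04, limma adjusted p = 0.0357), made up of 0.05 with shSerpine2-1 (95% interval -0.06 to 0.15) and 0.22 with shSerpine2-2 (95% interval 0.11 to 0.33). Both pooled calls were lost without shRenilla library B, with 0.13 (limma adjusted p = 0.114) for Slpi and 0.08 (limma adjusted p = 0.402) for Serpine2, and the second also when any single Serpine2 library was left out. The call for shSerpine2-2 alone was lost without shRenilla library B as well (0.17, limma adjusted p = 0.0758). Of the other Eph receptors, Ephb3 rose with Slpi lowered (0.67, SE 0.25, limma adjusted p = 0.0458) and Ephb6, which lacks kinase activity, fell (-0.79, SE 0.25, limma adjusted p = 0.0219). Both are weak, at 0.377 and 0.567 RPKM, and both calls were lost without either shRenilla library (limma adjusted p = 0.168 and 0.193 for Ephb3, 0.163 and 0.0882 for Ephb6). The call of Ephb3 was also lost without either shSlpi-1 library or shSlpi-2 library B (limma adjusted p = 0.0663 to 0.104).

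**Figure D3:**
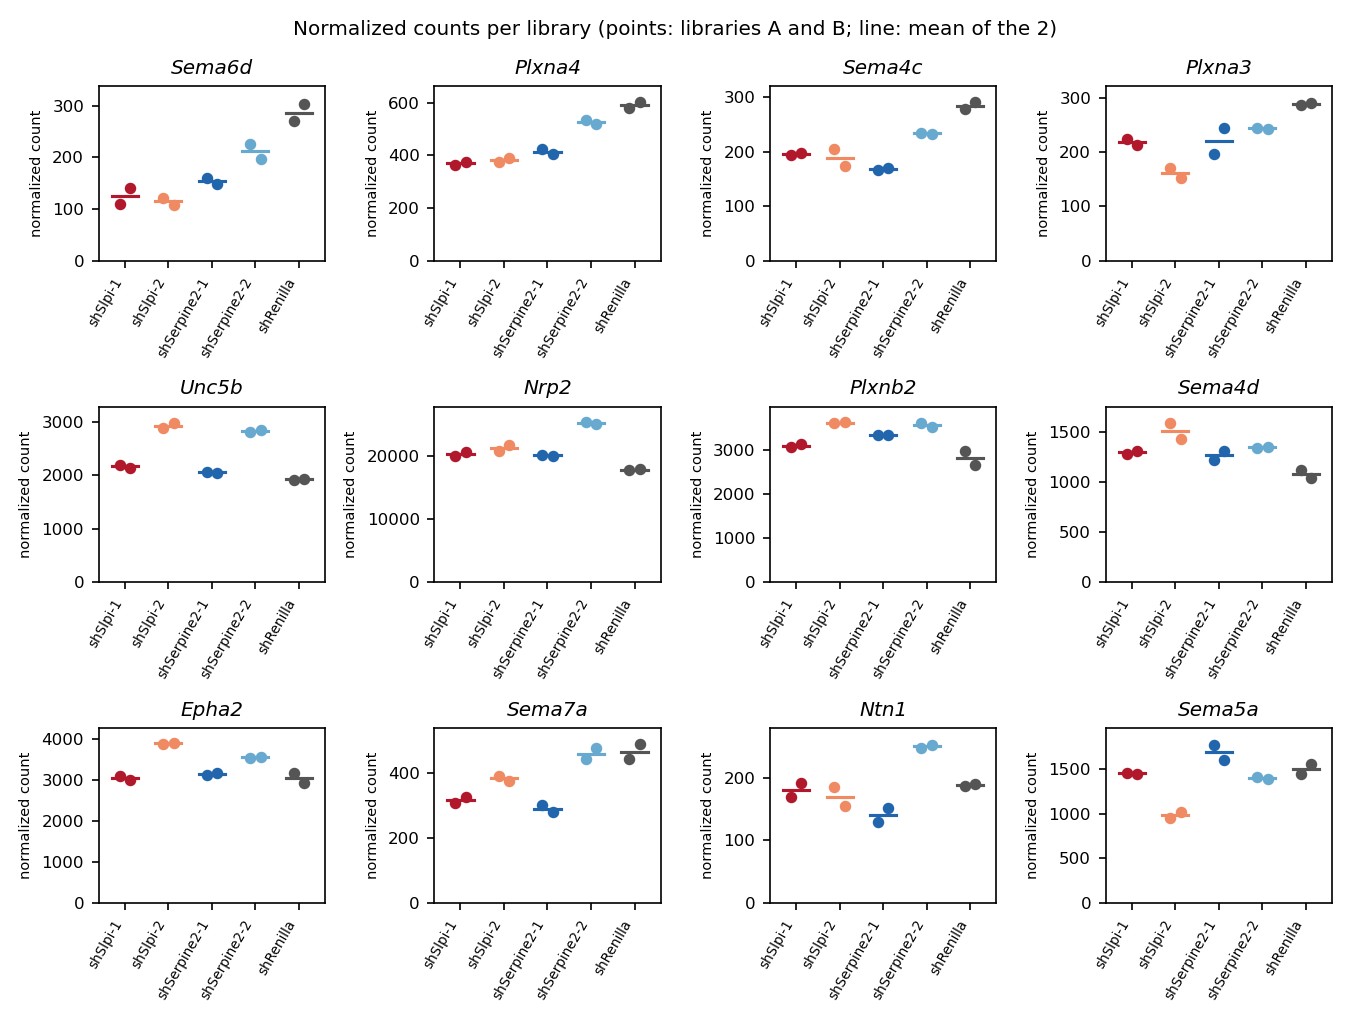
Normalized counts of 12 guidance genes in each library, with axes that start at 0. Points are libraries A and B, and lines are the means of both. Sema6d, Plxna4, Sema4c and Plxna3 are lower in all knockdown libraries than in both shRenilla libraries, Unc5b, Nrp2, Plxnb2 and Sema4d are higher, and Epha2, Sema7a, Ntn1 and Sema5a differ between hairpins of 1 target.

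**Figure D4:**
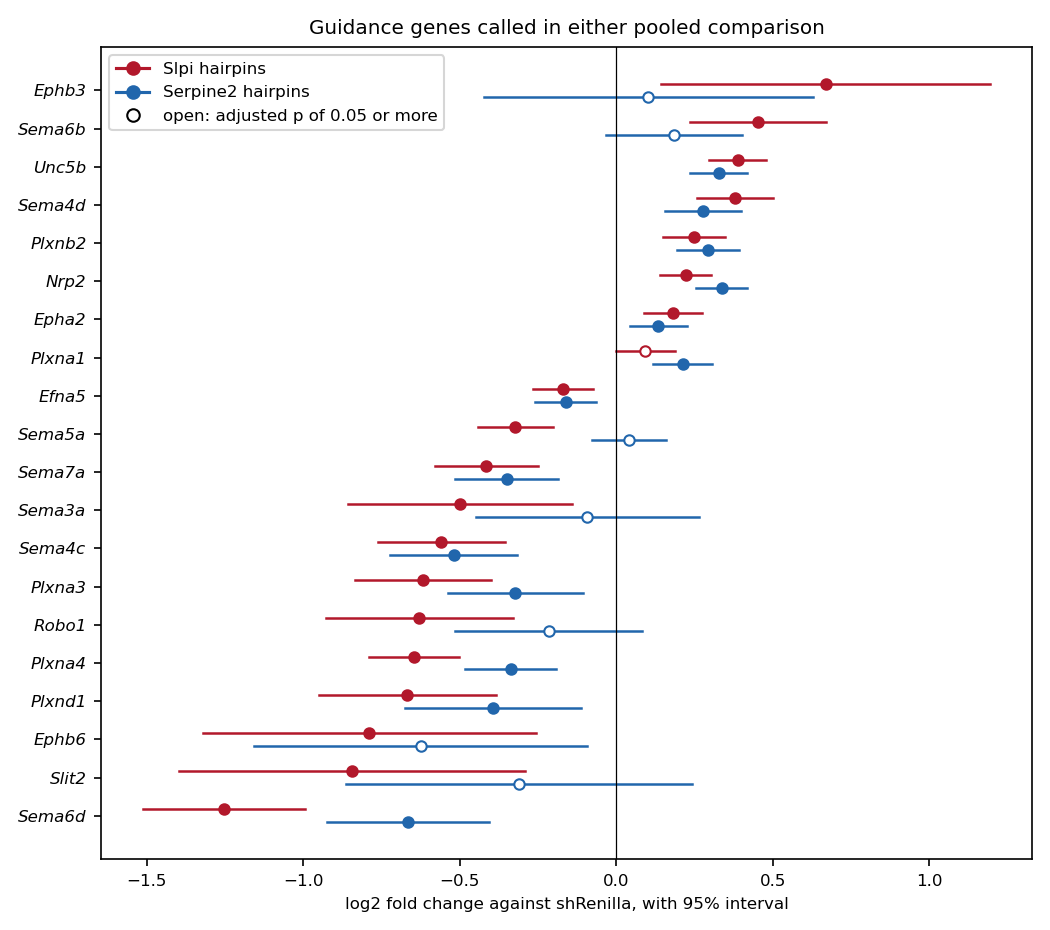
Log2 fold changes against shRenilla with 95% intervals for the 20 guidance genes called in at least 1 of the pooled comparisons, Slpi hairpins in red and Serpine2 hairpins in blue. Filled points have a limma adjusted p under 0.05. Sema6d is lowest for both, at -1.25 for Slpi and -0.67 for Serpine2, and both comparisons share the shRenilla libraries.

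Promoter sequence is shown for 4 genes that were described above for both knockdowns and whose only RefSeq start site lies at or outside the annotated gene, Unc5b and Epha2 among those that rose and Efna5 and Plxna3 among those that fell. Each is the 250 bases before the RefSeq start (GRCm38.p6), written 5′ to 3′ on the strand of the gene. Capitals mark GC boxes, GGGCGG on either strand, which are known to bind Sp1 family factors, and in Epha2 also CATTCC on either strand, the letters bound by TEAD factors. 
Unc5b (chr10:60831582-60831831, minus strand): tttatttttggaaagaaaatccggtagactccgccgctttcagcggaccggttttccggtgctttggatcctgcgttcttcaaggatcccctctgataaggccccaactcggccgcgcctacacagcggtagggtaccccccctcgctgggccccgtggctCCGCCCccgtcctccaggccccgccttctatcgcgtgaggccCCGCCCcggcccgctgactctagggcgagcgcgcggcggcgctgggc
Epha2 (chr4:141300971-141301220, plus strand): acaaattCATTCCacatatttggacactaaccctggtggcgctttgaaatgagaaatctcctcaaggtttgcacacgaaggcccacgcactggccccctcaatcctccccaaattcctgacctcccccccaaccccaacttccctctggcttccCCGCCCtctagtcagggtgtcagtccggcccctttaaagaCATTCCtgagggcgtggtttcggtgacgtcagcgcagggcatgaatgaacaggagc
Efna5 (chr17:62881318-62881567, minus strand): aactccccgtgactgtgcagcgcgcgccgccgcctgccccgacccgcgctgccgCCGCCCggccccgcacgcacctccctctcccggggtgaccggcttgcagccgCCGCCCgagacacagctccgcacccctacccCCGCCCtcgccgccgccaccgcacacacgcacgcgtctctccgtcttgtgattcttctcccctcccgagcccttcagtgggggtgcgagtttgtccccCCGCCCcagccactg
Plxna3 (chrX:74328816-74329065, plus strand): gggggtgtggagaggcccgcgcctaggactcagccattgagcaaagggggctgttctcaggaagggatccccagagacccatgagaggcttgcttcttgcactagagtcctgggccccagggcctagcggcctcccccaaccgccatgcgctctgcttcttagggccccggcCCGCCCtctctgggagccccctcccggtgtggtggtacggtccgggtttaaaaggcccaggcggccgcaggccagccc
GC boxes were found 2 times in Unc5b, 1 time in Epha2, 4 times in Efna5 and 1 time in Plxna3, so genes of either direction hold them, and Epha2 has 2 copies of CATTCC. RefSeq windows were at hand for 59 of the 68 members. Of their 75 windows 70.7% held a GC box, against 32.7% of all 32841 windows, and they were also richer in G and C, with a median of 64.4% against 52.4%. The TATA box TATAAA was found in 2.67% of member windows against 12.4% of all, TGANTCA of AP-1 in 4.00% against 6.75%, CAGGTG of Snail and Zeb factors in 13.3% against 17.2%, CCAAT in 26.7% against 33.9% and CATTCC in 10.7% against 12.6%. All motifs were searched on both strands. These matches describe letters in a window, and binding was not measured.

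Single hairpins differed in how many members they moved. With shSlpi-1, 3 members rose and 10 fell, or 30.2%, against 17.5% of all genes called (7.65% up and 9.88% down). With shSlpi-2, 12 rose and 12 fell, or 55.8%, against 42.4% of all genes (20.4% up and 21.9% down), and with library totals as the scale 7 were up and 14 down. With shSerpine2-1, 3 rose and 9 fell, or 27.9%, against 10.5% of all genes (5.09% up and 5.38% down). With shSerpine2-2, 9 rose and 4 fell, or 30.2%, against 27.5% of all genes (14.2% up and 13.4% down). Called with a single hairpin but not for both hairpins of its target were Ntn4 (-1.51) and Efnb1 with shSlpi-1, Sema4g (-1.16), Sema3e, Plxna1, Efnb2, Efna1, Efnb1, Epha4 and Sema6a (0.68) with shSlpi-2, Efnb1 and Ntn1 with shSerpine2-1, and Sema4g (-0.90), Plxnc1 (-0.85), Sema4b, Sema6b and Ntn1 with shSerpine2-2. Ntn4, a netrin of basement membranes, was the largest called log2 change with shSlpi-1 and is weak: it had 15.1 and 4.16 normalized counts there, against 21.1 and 29.7 with shRenilla. Its call (limma adjusted p = 0.0252) was lost without either shRenilla library or shSlpi-1 library B (up to 0.328). The calls of Sema4g and Plxnc1 were also lost without single libraries, shRenilla library B among them.

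These counts depended on single libraries, for members as for all genes. How many calls of all genes held in every such fit was not counted, so the numbers of held calls below are not set against all genes. Without shRenilla library B they were 6 for shSlpi-1, 5 for shSerpine2-1 and 5 for shSerpine2-2, while 6.62%, 2.47% and 13.1% of all genes were called. Without library A they were 6 for shSerpine2-1 and 7 for shSerpine2-2, with 4.86% and 17.4% of all genes. Without shSlpi-1 library B, 6 were called for shSlpi-1 and 7.47% of all genes. Leaving out a library of shSerpine2-1 gave 6 (A) or 5 (B) for that hairpin, with 3.19% and 3.07% of all genes, and leaving out a library of shSerpine2-2 gave 8 (A) or 6 (B) for that one, with 14.98% and 13.1%. Calls that held whichever library was left out numbered 5 of 13 for shSlpi-1, 14 of 24 for shSlpi-2, 4 of 12 for shSerpine2-1 and 5 of 13 for shSerpine2-2.

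Some members moved in opposite directions with the hairpins of 1 target. Efnb1, a transmembrane ephrin, had 164 and 171 normalized counts with shSlpi-1, 272 and 329 with shSlpi-2, 179 and 149 with shSerpine2-1 and 230.0 and 217 with shSerpine2-2, against 220.2 and 253 with shRenilla. Both shSlpi-1 libraries were below shRenilla and both shSlpi-2 libraries above it. Efnb1 fell by 0.49 with shSlpi-1 (SE 0.13, limma adjusted p = 0.0136) and rose by 0.34 with shSlpi-2 (SE 0.13, limma adjusted p = 0.0434). Ntn1 had 169 and 191 normalized counts with shSlpi-1, 186 and 155 with shSlpi-2, 129 and 152 with shSerpine2-1 and 248 and 253 with shSerpine2-2, against 188 and 191 with shRenilla. The shSerpine2-1 libraries were below and the shSerpine2-2 libraries above those of shRenilla. Ntn1 fell by 0.43 with shSerpine2-1 (SE 0.13, limma adjusted p = 0.0419) and rose by 0.41 with shSerpine2-2 (SE 0.13, limma adjusted p = 0.0266). All 4 calls depended on single libraries. That of Efnb1 was lost for shSlpi-1 without shRenilla library B (limma adjusted p = 0.164) or either shSlpi-1 library, and for shSlpi-2 when any 1 of 7 of the 10 libraries was left out (limma adjusted p up to 0.286). Those of Ntn1 were lost without either shRenilla library (limma adjusted p = 0.143 and 0.224 for shSerpine2-1, 0.11 and 0.109 for shSerpine2-2) or any library of the hairpin itself, and that of shSerpine2-1 also without either shSerpine2-2 library. Efnb1 and Ntn1 were singled out for this after their values had been seen.

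Between the Serpine2 hairpins, 2 members were higher and 14 lower with shSerpine2-1 than with shSerpine2-2, or 37.2%, against 14.7% of all genes called (6.98% higher and 7.69% lower). Ntn1 differed by -0.84 (SE 0.13, limma adjusted p = 0.000595) and Sema7a by -0.66 (SE 0.09, limma adjusted p = 0.00021). Unc5b differed by -0.46 (SE 0.05, limma adjusted p = 2.42e-05) and Nrp2 by -0.33 (SE 0.04, limma adjusted p = 0.000187), and these 4 calls held whichever library was left out. The other 12 did not: Plxnd1 (-0.69), Sema4c, Sema6d, Efnb1, Efna1, Plxna4, Sema4b, Ephb4, Plxna1 and Epha2 (from -0.48 for Sema4c to -0.17 for Epha2) were lower, and Sema5a (0.27) and Plxnc1 (0.76) higher. Thus the netrin Ntn1 and its receptor Unc5b were both higher with shSerpine2-2. The count of 16 was 7 without shSerpine2-1 library A, 5 without shSerpine2-1 library B, 6 without shSerpine2-2 library A and 4 without shSerpine2-2 library B, while 4.05%, 5.16%, 5.66% and 3.28% of all genes were called.

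Between the Slpi hairpins, 4 members were higher and 11 lower with shSlpi-1 than with shSlpi-2, or 34.9%, against 26.1% of all genes (13.7% higher and 12.3% lower). With library totals as the scale, 7 were higher and 6 lower, and the median of all genes shifted by 0.10. Epha4, a receptor for ephrins of both classes, had 217 and 209 normalized counts with shSlpi-1, 378 and 414 with shSlpi-2, 294 and 251 with shSerpine2-1 and 294 and 289 with shSerpine2-2, against 235 and 272 with shRenilla. It was high with shSlpi-2 alone, and differed by -0.89 between the hairpins (SE 0.11, limma adjusted p = 3.27e-05). Unc5b differed by -0.44 (SE 0.05, limma adjusted p = 1.54e-05) and Epha2 by -0.35 (SE 0.05, limma adjusted p = 0.000124). Sema5a, a transmembrane semaphorin with thrombospondin repeats, was the reverse. It had 1458 and 1449 normalized counts with shSlpi-1, 948 and 1021 with shSlpi-2, 1774 and 1603 with shSerpine2-1 and 1416 and 1389 with shSerpine2-2, against 1441 and 1552 with shRenilla, which is lowest with shSlpi-2 and a difference of 0.56 (SE 0.06, limma adjusted p = 1.84e-05). Its fall over both Slpi hairpins (-0.32, SE 0.06, limma adjusted p = 0.000321) therefore held -0.04 with shSlpi-1 (95% interval -0.18 to 0.10) and -0.60 with shSlpi-2 (95% interval -0.74 to -0.47). Without both shSlpi-2 libraries it was -0.04 (limma adjusted p = 0.626). The other calls were Slit2 (-1.18), Efnb1 (-0.83), Sema7a, Efnb2, Plxnb2, Plxna1, Sema4d and Ephb2 (from -0.27 for Sema7a to -0.19 for Ephb2) among those lower, and Robo1 (0.86), Sema3b (0.48) and Plxna3 (0.43) among those higher. Of the 15 calls, those of Unc5b, Sema5a, Epha4, Epha2, Efnb1, Robo1 and Plxnb2 held whichever library was left out. The count of 15 was 9 without shSlpi-1 library B, with 12.5% of all genes called, and 7 when only the 4 compared libraries entered the fit, with 10.2%.

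The knockdowns were also set against each other directly. With Serpine2 lowered, 8 members were higher and 1 was lower than with Slpi lowered, or 20.9%, against 17.5% of all genes called (10.3% higher and 7.21% lower), and with quantile normalization 8 were higher and 0 lower. For 3 members the groups did not overlap, or 6.98%, against 8.83% of all genes. Sema5a was 0.36 higher with Serpine2 lowered (SE 0.05, limma adjusted p = 6.11e-05), which follows its low values with shSlpi-2. Sema6d was 0.59 higher (SE 0.10, limma adjusted p = 0.000843) and Plxna4 0.31 higher (SE 0.06, limma adjusted p = 0.0013), without overlap between the groups. Sema4b, a transmembrane semaphorin, had 1652 and 1547 normalized counts with shSlpi-1, 1497 and 1724 with shSlpi-2, 1667 and 1624 with shSerpine2-1 and 2002 and 1965 with shSerpine2-2, against 1771 and 1707 with shRenilla. It was 0.17 higher with Serpine2 lowered (SE 0.05, limma adjusted p = 0.0165), with its highest values in shSerpine2-2, and Nrp2 was 0.11 higher (SE 0.03, limma adjusted p = 0.0184). The call of Sema4b was lost without shSerpine2-1 library A, shSerpine2-2 library A or shSlpi-1 library B (limma adjusted p = 0.0728 to 0.0781). That of Nrp2 was lost with quantile normalization (0.08, limma adjusted p = 0.143) and without any Serpine2 library or shSlpi-1 library A (limma adjusted p = 0.0653 to 0.0941). The remaining calls were Robo1 (0.41), Plxna3 (0.29) and Plxna1 (0.12) higher and Sema6b (-0.27) lower with Serpine2 lowered, each lost without at least 3 single libraries. Only the calls of Sema5a, Sema6d and Plxna4 held whichever library was left out. The count of 9 was 5 without shSerpine2-1 library A, 5 without shSerpine2-1 library B, 5 without shSlpi-1 library A and 4 without shSerpine2-2 library A, while 9.55%, 10.9%, 10.7% and 8.99% of all genes were called.

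The 25 members below a mean of 10 normalized counts were not tested, and their means ran from 0.510 to 8.24. They include Robo2, Robo3 and Robo4, Slit1 and Slit3, Unc5a, Unc5c and Unc5d, 2 netrins, 2 ephrins, 2 plexins, 5 Eph receptors and 6 semaphorins. Summed, they had 59.5 and 67.6 normalized counts with shSlpi-1, 159 and 178 with shSlpi-2, 59.0 and 72.0 with shSerpine2-1, and 39.5 and 55.9 with shSerpine2-2, against 32.7 and 40.8 with shRenilla. The shSlpi-2 libraries were the highest, and 19 of the 25 members had their highest group mean there. The sums of all 9942 weak genes were also highest with shSlpi-2, at 30944 and 34833, against 11583 and 12224 with shRenilla. How many of all weak genes had their highest group mean there was not counted. With shSlpi-2, 19938 and 20253 genes had a read, against 15887 and 16040 with shRenilla. With shSlpi-2 the weak members, the weak genes as a whole and the share of Rn45s were thus all above shRenilla, and the part of either in the sum of the members was not tested. With shSlpi-1 all of these were above shRenilla too, with 19181 and 17656 normalized counts for all weak genes and 1.96% and 1.89% Rn45s. With the Serpine2 hairpins they did not run together. With shSerpine2-1 the weak members and all weak genes (16720 and 16280) were above shRenilla. Rn45s there made up 0.928% and 0.881%, less than with shRenilla. With shSerpine2-2 the sum of the weak members in library A lay between those of both shRenilla libraries and in library B above them, while all weak genes summed to 9008 and 8849, less than with shRenilla. Plxna2, a receptor for class 3 and class 6 semaphorins picked after its values were seen, had 12.6 and 18.9 normalized counts with shSlpi-2, against no read in either shRenilla library, which leaves room for up to 3 reads in each. When no filter was set, 23 of 68 members were called with Slpi lowered, 14 up and 9 down, whereas with the filter more fell than rose. In that unfiltered fit 22.2% of all genes were called, and the median change of all genes was 0.16 on the log2 scale, against -0.01 with the filter.

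**Figure D5:**
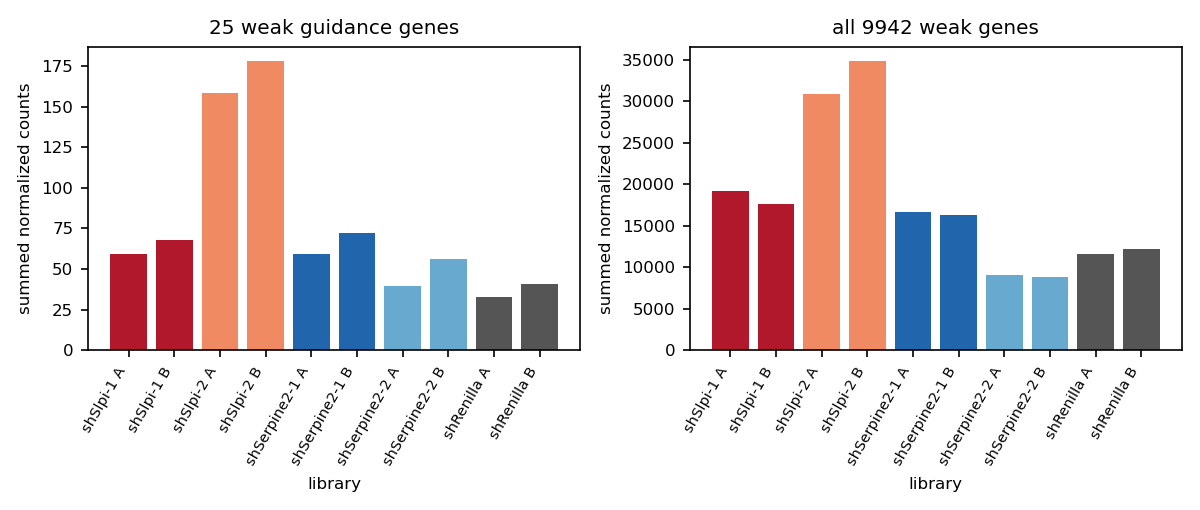
Summed normalized counts per library of the 25 guidance genes with a mean below 10 (left) and of all 9942 genes below that mean (right), with axes that start at 0. In both panels the 2 shSlpi-2 libraries are highest, at 159 and 178 against 32.7 and 40.8 with shRenilla on the left.

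Most markers of other cells that use these genes were weak. Of 10 endothelial markers 1 (Tie1) reached a mean of 10 normalized counts, and the list summed to 54.1 to 67.5 with shSlpi-1, 114 to 168 with shSlpi-2, 71.3 to 87.1 with shSerpine2-1 and 43.0 to 46.7 with shSerpine2-2, against 36.9 to 62.8 with shRenilla. Robo4 is both such a marker and a member, with 11.6 and 10.4 normalized counts with shSlpi-2 and 0 and 3.31 with shRenilla. Of 8 fibroblast markers 1 (Pdgfra) reached 10, with list sums of 599.8 to 659 for shSlpi-1, 471 to 599 for shSlpi-2, 632 to 654 for shSerpine2-1 and 776.2 to 776.5 for shSerpine2-2, against 891 to 910.3 for shRenilla. These sums follow Pdgfra, which had 564 and 436 with shSlpi-2 against 896 and 873 with shRenilla. The rest of that list was weak and went both ways with shSlpi-2. Col1a1 had 20.3 and 15.2 there against 6.32 and 4.41, and Dcn 0 and 0.947 against 1.05 and 6.61. Among 6 neuronal markers Map2 alone reached 10, and of 8 leukocyte markers in the table Cd68 alone did, with list sums of 399.7 to 519 and 138 to 180.4 over the 10 libraries. The sum of the 6 epithelial markers was 31410 to 31422 with shSlpi-2, 27257 to 27689 with shSlpi-1, 26828 to 27021 with shSerpine2-2 and 25533 to 25935 with shSerpine2-1, against 21599 to 22199 with shRenilla. No marker was at 0 in all libraries, and the part of these markers in the changes of guidance genes was not tested.

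Genes that work with the guidance receptors were counted from a list of 96, of which 77 were tested. With Slpi lowered 12 rose and 18 fell, or 39.0%, against 34.8% of all genes, and with Serpine2 lowered 8 rose and 8 fell, or 20.8%, against 21.5%. Pdzrn3, a ubiquitin ligase with PDZ domains, had 1219 and 1192 normalized counts with shSlpi-1, 857 and 976 with shSlpi-2, 1485 and 1434 with shSerpine2-1 and 1519 and 1660.2 with shSerpine2-2, against 2291 and 2496 with shRenilla. It was lower in every knockdown library, with a log2 fold change -1.19, SE 0.06, limma adjusted p = 1.06e-09 for Slpi and a log2 fold change -0.65, SE 0.06, limma adjusted p = 4.27e-06 for Serpine2. Flrt3, a membrane protein that binds Unc5 receptors, had 1037 and 1079 normalized counts with shSlpi-1, 749 and 841 with shSlpi-2, 1044 and 1029.8 with shSerpine2-1 and 1189.7 and 1165 with shSerpine2-2, against 1405 and 1502 with shRenilla. It too was lowest with shSlpi-2, with a log2 fold change -0.66, SE 0.06, limma adjusted p = 4.31e-07 for Slpi and a log2 fold change -0.39, SE 0.06, limma adjusted p = 0.000212 for Serpine2. Yes1, a Src family kinase, had a log2 fold change -0.59, SE 0.05, limma adjusted p = 4.02e-07 for Slpi and a log2 fold change -0.29, SE 0.05, limma adjusted p = 0.000907 for Serpine2. Neo1, the netrin and Rgm receptor neogenin, fell with Slpi lowered (log2 fold change -0.42, SE 0.04, limma adjusted p = 1.49e-06) to 7146 and 7087 normalized counts with shSlpi-1 and 7083 and 6549 with shSlpi-2, against 9202 and 9368 with shRenilla. Rasa1, a Ras GTPase-activating protein that binds Eph receptors, fell with Serpine2 lowered (log2 fold change -0.37, SE 0.06, limma adjusted p = 0.000574).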

How the data were processed

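RNA sequencing of 10 libraries, 2 in each of 5 groups, was used. The submitters' processing notes name Bowtie2, HTSeq, DESeq and build mm10. Versions, settings, annotation and use of strand were not given in the sources used here. The deposited table holds log2 values with a common floor of 6.733366499. They have the form of a variance-stabilizing transformation, and inverting it gave normalized counts that were whole reads within 0.01 for 100% of values. The inversion rests on the values, since no label states the transformation. The planned limma fit was then run on log2(normalized count + 1), a scale that understates changes of weak genes.

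The 12299 genes whose mean reached 10 entered limma 3.58.1 in R 4.3.3, with 5 group means, eBayes with a mean-variance trend, two-sided p-values and Benjamini-Hochberg adjustment over all genes tested. A gene is called, or said to have risen or fallen, at an adjusted p under 0.05. Contrasts were Slpi hairpins and Serpine2 hairpins against shRenilla, each hairpin against shRenilla, Serpine2 against Slpi hairpins, and hairpin against hairpin. Levels per length used exon lengths of GENCODE M21 (GRCm38), which matched 68 of 68 members. Promoters came from RefSeq windows (GRCm38.p6). Floors of 3 reads, 2.30 to 3.48 normalized counts, cover counting error only. The fit was tested on simulated data in which all libraries shared 1 spread and hairpins of 1 target did not differ. It therefore does not cover the wider difference between the shSlpi-2 libraries (9.66 against 1.51 to 2.64) or differences between hairpins.

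Described per library were Epha2 and, for each pooled comparison, up to 15 called members with a mean of at least 50, 1 sign with both hairpins and no overlap with shRenilla (14 for Slpi and 10 for Serpine2). Up to 5 were taken for Serpine2 against Slpi, and up to 4 per hairpin pair and from the partner list. Other called members are named, some with values only as part of a range. The members and lists were chosen with earlier results of these data known. Alternatives covered pseudocount, filter, normalization, fit and left-out libraries.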

Additional observations from a re-analysis of the deposited data

Results flagged for a closer look

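The 8 values below are listed because the response to the hairpins of 1 target differed by a test of the difference itself (limma, adjusted over all genes). Between shSerpine2-1 and shSerpine2-2, the log2 difference was -0.46 for Unc5b, -0.33 for Nrp2, -0.66 for Sema7a and -0.84 for Ntn1. Between shSlpi-1 and shSlpi-2 it was -0.44 for Unc5b, 0.56 for Sema5a, -0.89 for Epha4 and -0.35 for Epha2. Unc5b is in both sets, with higher values for the second hairpin of each target. Lowering of the targets differed too: Serpine2 had 128 and 139 normalized counts with shSerpine2-1 and 489 and 514 with shSerpine2-2, and Slpi had 145 and 147 with shSlpi-1 and 60.9 and 75.8 with shSlpi-2. Slpi also differed between the Serpine2 hairpins, with 326 and 414 normalized counts with shSerpine2-1 and 1111 and 1218 with shSerpine2-2. The part of either target in these differences was not tested. No group had 4 or more libraries, so single libraries were not screened as outlying.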

How the results depend on the processing

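For the calls of members and the partner genes described, 142 values gave 3036 alternative values. Of these 2596 kept their direction and their call, 440 lost the call and 0 changed direction, and 40 of the losses came with hairpin lines as units and 48 without shRenilla library B. Counts of called members moved by over 1.5 times as follows. With hairpin lines as units limma called 0 of 43 members for Slpi and 0 for Serpine2, and 0% of all genes in both. With no filter the count was 7 for shSerpine2-1, 6 for shSerpine2-2 and 10 for shSerpine2-1 against shSerpine2-2. For shSerpine2-1, 3.16% of all genes were called with no filter, against 10.5% with it. Without the mean-variance trend the count was 6 for shSlpi-1, 5 for shSerpine2-1, 7 for shSerpine2-2, 4 for Serpine2 against Slpi and 8 for shSerpine2-1 against shSerpine2-2. The share of all genes called without the trend was 9.14% for shSlpi-1 and 4.12% for shSerpine2-1, against 17.5% and 10.5% with it. For the other comparisons in these fits the shares of all genes are not given here, so those counts say nothing particular to guidance genes. With only the compared groups the count of members was 7 for shSlpi-1 against shSlpi-2. The cause was not tested.

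Leaving out 1 library at a time gave 12 to 21 called members for Slpi, 4 to 16 for Serpine2, 6 to 16 for shSlpi-1, 17 to 25 for shSlpi-2, 5 to 14 for shSerpine2-1, 5 to 15 for shSerpine2-2, 4 to 13 for Serpine2 against Slpi, 4 to 19 for shSerpine2-1 against shSerpine2-2 and 9 to 15 for shSlpi-1 against shSlpi-2. The share of all genes called moved in these fits as well, so these ranges are not to be read as a trait of the guidance genes. A left-out library leaves a group with a single library, which is then assumed to vary like the others.

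Libraries with the same letter did not deviate together, with correlations of -0.0727 to 0.0724 over 10 pairs of groups. With the letter as a replicate block 19 members were called for Slpi and 13 for Serpine2, and 4 single-hairpin calls were lost, those of Sema3e for shSlpi-2 (limma adjusted p = 0.0517), Efna5 for shSerpine2-1 (0.0546) and shSerpine2-2 (0.0504) and Plxnc1 between the Serpine2 hairpins (0.054). No other call was lost. Scaling to library totals moved the median of all genes by 0.10 between shSlpi-1 and shSlpi-2. With 2 libraries per group, small changes of weak members may be missed.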
